A study of Mus musculus with 96 samples.

Results

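Transcripts of 10 tubulin genes were followed in single cells of the mouse lung line C10, labelled alveolar type II epithelial, with and without RO-3306, which is known as an inhibitor of the mitotic kinase CDK1. The 10 genes were chosen by symbol from the 40202 genes of each count file. They are the alpha-tubulins Tuba1a, Tuba1b and Tuba1c, the beta-tubulins Tubb5, Tubb4b, Tubb6, Tubb2a, Tubb2b and Tubb3, and the gamma-tubulin Tubg1. Of these, 9 had a count in at least 1 kept cell, and 8 reached a mean of 5 counts per 1000000 counts (CPM) over the groups. Tuba1b was at 0 in all kept cells and Tubb3 was below 5 CPM.

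The study comprised 96 libraries of 1 cell each, 48 from cells with no treatment (control) and 48 from cells given RO-3306 at a labelled 10 nM for 36 h. The series title names nanoSPLITS, in which the lysate of a cell is divided so that transcripts and proteins can both be measured; the protein part was not analysed here. Both groups share the line, the medium and the SMART-seq v4 chemistry, and no genetic change is labelled in either. A cell was kept at 50000 counts and 1000 genes or more, which left 29 control and 37 RO-3306 cells. Kept cells held from 59979 to 6457215 counts in control (median 1753427) and from 295005 to 5321880 in RO-3306 (median 2234309). Thinned to 639000 reads, the median control cell had a count in 4578 genes (25 cells) and the median RO-3306 cell in 5976.5 (34 cells). Mitochondrially encoded genes took 3.31% of the summed counts in control and 4.93% with RO-3306. The labels name no culture or animal, so each treatment is 1 sample: differences have no replicate check, no test was made, and intervals (95%) cover counting error only. The titles carry letters A to D whose meaning is not given, and values in these 4 sets of libraries are given to show how far results hold across them, not as replicates. Sets A to D held 10, 8, 6 and 5 kept control cells and 10, 10, 11 and 6 kept RO-3306 cells. A set value can thus rest on few cells.

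The labelled cell type was compared with marker genes. Of 9 alveolar type II markers, Sftpa1, Sftpc, Sftpd, Slc34a2 and Napsa were at 0 in both groups, and the 9 summed to 23.2 CPM in control (0 to 109 CPM per cell) and 24.1 CPM with RO-3306 (0 to 347). The 6 epithelial markers summed to 1.78 CPM in control (0 to 396 CPM per cell) and 0.978 CPM with RO-3306 (0 to 48.2). A count of any of them was seen in 10 of 29 control and 14 of 37 RO-3306 cells, and Krt18 and Cldn4 were at 0 in both. The 6 mesenchymal markers (Col1a1, Col3a1, Fn1, Vim, Acta2, Cdh2) were all found and summed to 5579 CPM in control (1329 to 11354 per cell) and 2523 CPM with RO-3306 (1263 to 13886). Tubulin isotypes are also read as marks of neurons and ciliated cells, so markers of these were summed too. Neuronal markers summed to 0.616 CPM in control (0 to 1.87 CPM per cell) and 2.08 CPM with RO-3306 (0 to 41.0). Ciliated markers summed to 4.03 CPM (0 to 135) and 0.409 CPM (0 to 16.8). The 7 macrophage markers summed to 57.6 CPM (0 to 314) and 61.2 CPM (0 to 436). Exact zeros can come from the counting: the housekeeping gene B2m and the folding gene Arl2 were also at 0 in both groups, and their spans lie 100% inside those of other genes. Of the alveolar and epithelial markers at 0, the spans of Sftpa1, Sftpc, Sftpd, Krt18 and Cldn4 overlap no other gene (0%), that of Slc34a2 does so for 0.0134% and that of Napsa for 47.8%. The part of these marker differences in the results below was not tested.

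Microtubules are polymers of a dimer of alpha- and beta-tubulin, each made from several genes, or isotypes, whose proteins differ mostly in the acidic tail at the carboxyl end. Gamma-tubulin is not part of the wall of the polymer. It sits in a ring complex at centrosomes and spindle poles, from which microtubules grow. Cells hold tubulin transcripts in check through an autoregulatory loop. When free dimer is plentiful, the factor TTC5 binds the first residues of nascent tubulin on the ribosome and the messenger RNA is degraded. Dividing cells build their spindle from the same pool of dimer.

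The isotypes are close in sequence, which sets how far counts can tell them apart. Each set below holds 90 coding bases on the coding strand, 5′ to 3′, from GENCODE M21 transcripts (GRCm38), with capitals where members of the set differ. The last 90 coding bases of Tubb2a and Tubb2b, neighbours on chromosome 13, encode the tails in which isotypes usually differ. They differ at 3 positions.
Tubb2a: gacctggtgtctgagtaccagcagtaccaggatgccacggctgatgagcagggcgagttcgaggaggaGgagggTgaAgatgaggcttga
Tubb2b: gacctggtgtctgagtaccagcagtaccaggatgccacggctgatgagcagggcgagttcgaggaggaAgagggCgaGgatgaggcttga
The first 90 coding bases of Tubb5 and Tubb4b, the beta members with the highest levels, differ at 14 positions.
Tubb5: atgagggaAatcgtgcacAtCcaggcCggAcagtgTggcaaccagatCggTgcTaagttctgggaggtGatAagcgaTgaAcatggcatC
Tubb4b: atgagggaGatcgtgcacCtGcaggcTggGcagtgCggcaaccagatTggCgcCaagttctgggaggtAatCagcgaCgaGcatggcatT

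Over the whole coding sequence Tuba1a was 98.3% identical to Tuba1b and 97.1% identical to Tuba1c, and Tuba1b was 97.9% identical to Tuba1c. Tubb2a and Tubb2b were 96.5% identical, while Tubb5 and Tubb4b were 82.2% identical. A read of 150 nt falls wholly in shared sequence only for the close pairs. Of the 150-nt windows of the Tuba1a message, 16.9% occurred exactly in Tuba1b and 26.8% in Tuba1c, and 27.9% of those of Tubb2a occurred in Tubb2b. Of the windows of Tuba1b, 40.7% occurred in Tuba1c, and 35.4% of those of Tuba1c occurred in Tuba1b. No such window was shared between Tubb5, Tubb4b, Tubb6 and Tubb3, or between any of these and another member. The authors split a read placed at several sites into fractions. Fractional counts stood in 100% of the control libraries with a count for Tuba1a and for Tuba1c, and in 75% for Tubb2b, 73.9% for Tubb2a, 69.2% for Tubb4b, 44.4% for Tubb6, 35% for Tubg1 and 31.0% for Tubb5. With RO-3306 the share was 86.5% for Tubb2a, 67.6% for Tubb4b and 51.4% for Tubb5. All 9 members with a count thus had some split reads. The share for Tubb4b was near that for Tubb2a in control and below it with RO-3306. Levels of Tuba1a, Tuba1c, Tubb2a and Tubb2b are uncertain where reads could be split between them. Sites outside the members that shared reads with Tubb4b or Tubb5 were not looked for, so their levels carry this limit too.

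Position mattered for 2 members. Tuba1b (GRCm39 chromosome 15, 98829310 to 98832271, minus strand) lies 100% inside the span of the uncharacterised gene Gm41396 (98815850 to 98838393, plus strand). Counting was over whole gene spans with no option for strand or for overlapping genes, and by the tool's defaults a read over both spans is left uncounted. Tuba1b is listed at 0 in all 29 control and 37 RO-3306 cells, where 3 counts would be 0.0454 and 0.0323 CPM, and its level cannot be read from these files. Gm41396 itself had 2.89 CPM in control and 1.97 CPM with RO-3306. Tubb4b (chromosome 2, 25112170 to 25114714, minus strand) shares 124 nt, or 4.87% of its span, with Fam166a. The other 8 members overlap no listed gene. Tuba1a (98847728 to 98851382, minus) and Tuba1c (98927772 to 98935986, plus) also lie on chromosome 15. Tubb5 lies on chromosome 17 (36144812 to 36149193, minus), Tubb6 on chromosome 18 (67523801 to 67535819, plus), Tubb3 on chromosome 8 (124138292 to 124148754, plus) and Tubg1 on chromosome 11 (101010725 to 101017249, plus). Tubb2a (34258261 to 34261991) and Tubb2b (34310991 to 34314337) are both on the minus strand of chromosome 13.

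Set beside each other per kilobase of messenger RNA, the members covered a wide range of levels in control cells. Counts cover whole gene spans with introns, such as 12019 nt for Tubb6, while its messenger RNA has 1758 nt. Reads in introns were not told apart, a limit of these levels and of the shares per kilobase below. Tubb5, the widely expressed class I beta-tubulin, had the highest level at 806 CPM per kb. Tuba1a followed with 617 CPM per kb, then Tuba1c with 240.4 and Tubb4b with 236. Tubb6 had 174 CPM per kb, Tubb2a 165, Tubg1 83.6 and Tubb2b 14.2. Tubb3, the class III beta-tubulin typical of neurons, had 0.124 CPM per kb. In RO-3306 cells the order was the same except that Tubb4b (350.0 CPM per kb) stood above Tuba1c (243). Tubb5 has 2 coding transcripts of unlike length, and with the longer one it had 519 CPM per kb in control and 403 in RO-3306, below Tuba1a in both groups (617 and 520). The order of Tubb5 and Tuba1a thus rests on which transcript is used. Tuba1c and Tubb4b in control differed by less than their spread over cells, as did Tubb6 and Tubb2a in both groups.

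Tubulin transcripts were summed over the 10 members, with Tuba1b, whose level cannot be read here, as 0. They took 4094 CPM in control (interval 4079 to 4110) and 3807 CPM with RO-3306 (3795 to 3820). The log2 ratio of RO-3306 over control, computed with 1 CPM added to both, was -0.10. In sets A to D it was 0.13, -0.60, 0.21 and -0.15, so the sets did not share a sign, and without set B it was 0.12. Per cell at equal depth the sum ran from 1784 to 6260 CPM in control (median 3759) and from 1781 to 8268 CPM with RO-3306 (median 3688). The ranges of the groups overlapped, and RO-3306 cells alone reached above 6260 CPM. Ratios relative to total counts carry a scale: TMM factors raise them by 0.21 and DESeq2 size factors by 0.24, so a smaller ratio has no settled sign. The alpha members, again with Tuba1b as 0, had a log2 ratio of -0.16 and the beta members of -0.11.

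A gene was called where its log2 ratio was at least 1 in size, its mean was at least 5 CPM and the 4 sets agreed in sign. By this rule 13.7% of the 9374 genes of at least 5 CPM were called, 7.23% higher and 6.43% lower in RO-3306. Of the 8 tubulin members tested, 0 were called. Their log2 ratios ran from -0.36 to 0.57 with a median of -0.12, against a median of -0.22 over all genes (quartiles -0.98 and 0.43). Ratios lay within 0.5 of 0 in 7 of the 8, against 38.1% of all genes. Of the 8, 3 ratios were above 0 and 5 below, and 41% of all genes were above. One member, Tubb4b, had the same sign in all 4 sets, as did 23.3% of all genes. The shares of all genes are over genes of every level from 5 CPM, and nothing particular to the tubulins is read from these counts.

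**Figure D1:**
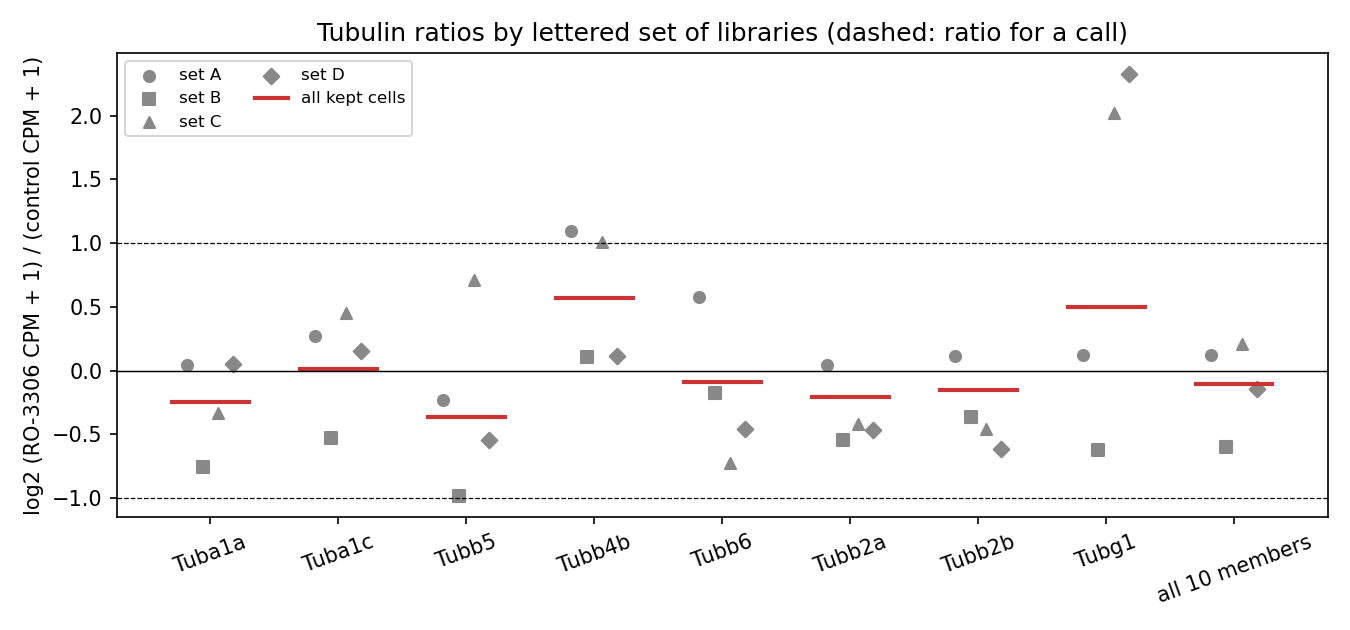
Log2 ratio of RO-3306 over control (vertical axis, 1 CPM added to both) for each tubulin member of at least 5 CPM and for the sum of all 10; grey symbols are the 4 lettered sets, red bars are all kept cells, and dashed lines mark the ratio of 1 in size used for a call. Red bars lie between -0.36 and 0.57, and only for Tubb4b do all 4 symbols stand above 0. Tuba1b, whose level cannot be read, enters the sum as 0.

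Tuba1a, an alpha isotype abundant in developing neurons, was counted in 29 of 29 control and 37 of 37 RO-3306 cells. Its summed level was 1113 CPM in control (1105 to 1121) and 937 CPM with RO-3306 (931 to 943), a log2 ratio of -0.25. Per cell at equal depth it ran from 407 to 2309.9 CPM in control (median 1020.3) and from 79.8 to 2207 CPM with RO-3306 (median 912). The lowest RO-3306 cells lay below every control cell, and the rest overlapped. In sets A to D the log2 ratio was 0.045, -0.76, -0.33 and 0.049.

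Tuba1c, an alpha isotype encoded beside Tuba1a, was also counted in every kept cell. It had 476 CPM in control and 482 CPM with RO-3306, a log2 ratio of 0.016. The cells ran from 135 to 989 CPM (median 410.0) in control and from 152 to 973 CPM (median 466) in RO-3306, with nearly the same bounds. Set B was lower (-0.53) and sets A, C and D higher (0.27, 0.46 and 0.15). Of the summed transcripts of the alpha members per kilobase, Tuba1a made up 72.0% in control and 68.1% with RO-3306. The share of Tuba1c was higher with RO-3306 in each of the 4 sets, by 1.51 to 10.6 percentage points. Tuba1b could not be counted, and Tuba4a, which is not among the 10 members, is not in that sum. With Tuba4a added, Tuba1a made up 63.1% and 48.5%, and the share of Tuba1c turned to a lower one (24.6% and 22.7%). With the longest transcript of each gene these became 69.1% and 60.8% for Tuba1a, and 26.9% and 28.4% for Tuba1c, so the direction for Tuba1c rests on the genes and lengths used. The sums with Tuba4a were chosen after values were seen.

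Tubb5 was the highest beta isotype in the sum and in most single cells. It was counted in every kept cell, at 1375 CPM in control (1366 to 1383.5) and 1068 CPM with RO-3306 (1061 to 1074), a log2 ratio of -0.36. Per cell it ran from 248.8 to 2701 CPM in control (median 1339.6) and from 90.8 to 2443 CPM with RO-3306 (median 929). The groups overlapped, with the RO-3306 median between the lower quartile (765 CPM) and the median of control. Sets A, B and D were lower (-0.23, -0.99 and -0.54) and set C was higher (0.71). In set C the control level, 739 CPM, was the lowest of the 8 set values. Without set B the ratio was -0.060.

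Tubb4b, a broadly expressed class IV beta-tubulin that is also a main isotype of cilia, had the highest ratio of the members tested. It had a count in 26 of 29 control and 34 of 37 RO-3306 cells. Summed levels were 377 CPM in control (373 to 382) and 559 CPM with RO-3306 (554 to 564), a log2 ratio of 0.57. Control sets A to D stood at 231, 507, 313 and 485 CPM, and RO-3306 sets at 493, 548, 630.3 and 525 CPM. The ratio was 1.09 and 1.007 in sets A and C but 0.11 and 0.12 in sets B and D, so most of the difference lay in 2 of the 4 sets. Of the control counts of Tubb4b, 29.1% came from cells B4 and B2. Per cell it ran from 0 to 886 CPM in control (median 294) and from 0 to 1335 CPM with RO-3306 (median 509), and the groups overlapped. Over the alternatives tried the ratio stayed between 0.30 and 0.93.

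**Figure D2:**
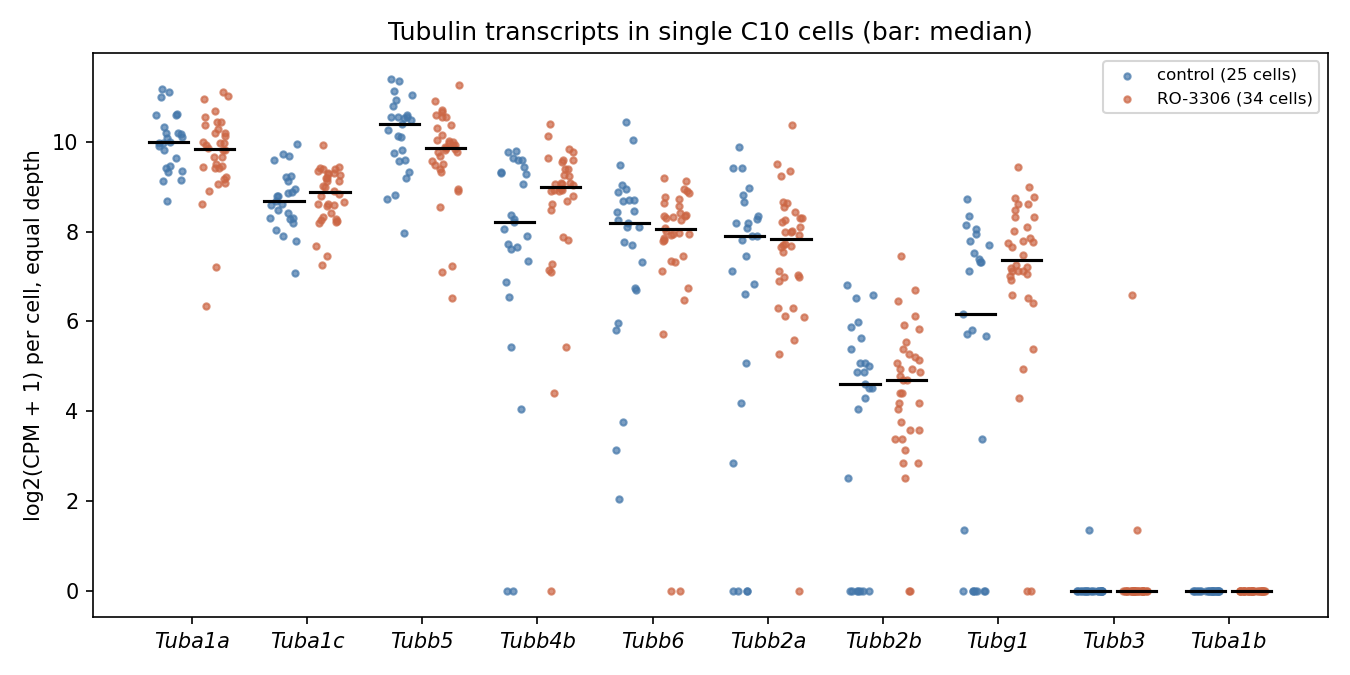
Level of each tubulin member per cell, as log2(CPM + 1) after thinning to equal depth, in 25 control (blue) and 34 RO-3306 cells (orange); bars are medians and cells at 0 had no count. The groups overlap for every member, the Tubb4b median is higher in RO-3306 (509 against 294 CPM), and a smaller share of control cells has Tubg1, Tubb2a and Tubb2b. The median gene of at least 5 CPM was also found in fewer control cells (40% against 55.9%).

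The makeup of the beta-tubulin transcripts per kilobase differed mostly in Tubb5 and Tubb4b. Tubb5 made up 57.8% of them in control and 48.3% in RO-3306, and Tubb4b 16.9% and 27.0%. The difference in Tubb4b was 10.0 percentage points over all kept cells, and 12.3, 10.9, 10.1 and 7.36 points in sets A to D. The share was thus higher in each set, including B and D, where the level itself differed little. Tubb5 took 64.4%, 58.0%, 37.9% and 57.1% of the beta transcripts in control sets A to D and 49.4%, 42.8%, 49.0% and 51.2% with RO-3306, lower in 3 sets and higher in set C. The median cell had a Tubb4b share of 14.5% in control (quartiles 6.86% and 26.6%) and 25.5% in RO-3306 (17.6% and 32.5%). The inner ranges overlapped. Shares do not depend on a scale factor applied to a whole group, but in the summed shares each cell weighs by its depth. With the longest transcript of each gene the Tubb4b shares were 21.3% and 32.6%. Without the cell with the most Tubb4b counts in each group they were 16.4% and 26.1%, and as a mean over cells 16.9% and 24.8%. These alternatives for the shares were chosen after its values were seen. By median transcript length Tubb5 was the isotype with the highest level per kilobase in most cells, 21 of 25 in control (63.9% to 95.5%) and 30 of 34 in RO-3306 (72.5% to 96.7%). Tubb4b led in 2 control cells and 1 RO-3306 cell. With the longest transcripts Tubb5 led in 18 of 25 and 20 of 34 cells and Tubb4b in 3 and 10, and the Tubb5 share was 46.8% in control and 37.5% with RO-3306.

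**Figure D3:**
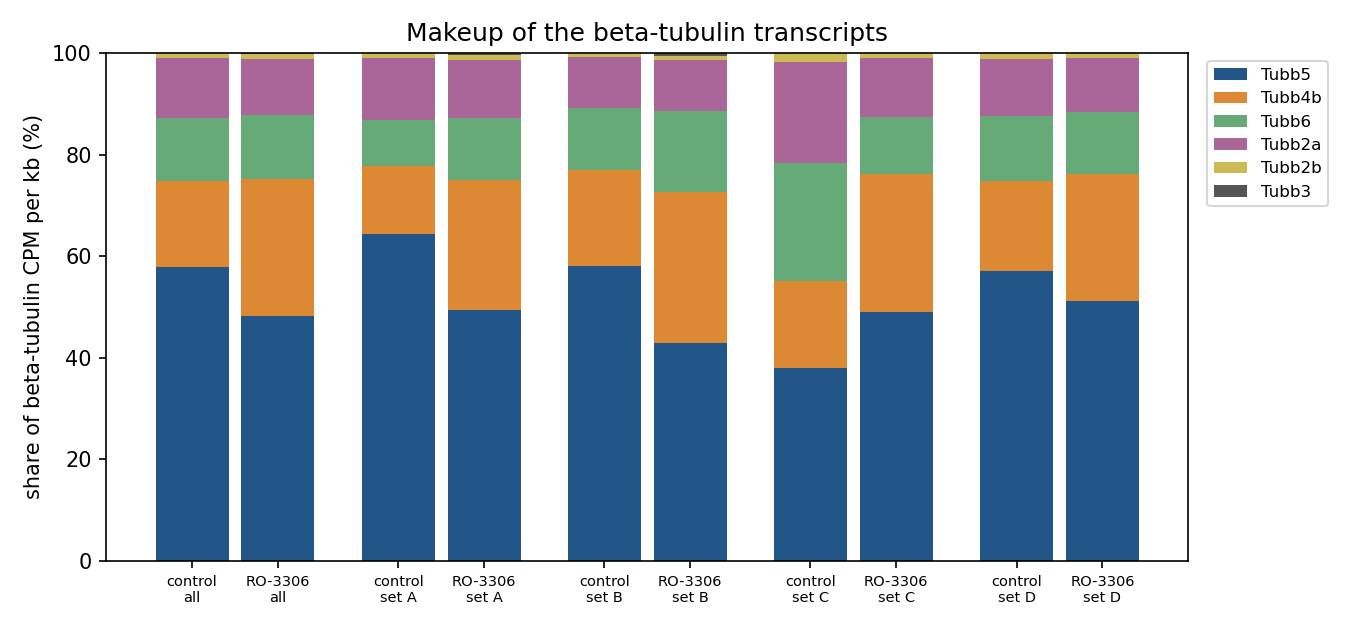
Share (percent) of each beta-tubulin gene in the summed beta-tubulin CPM per kilobase, for all kept cells and for each lettered set, control beside RO-3306. The Tubb4b band (orange) is wider in RO-3306 in each set, 27.0% against 16.9% over all cells.

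Because Tubb4b was the member with 1 sign throughout, its promoter is shown, from the RefSeq table of the GRCm38.p6 build, chr2:25224653-25224952 on the minus strand, from 250 bases before to 50 after the start. Capitals mark CCAAT, the core letters bound by the factor NF-Y, and TTTGAA, the letters of the cell cycle genes homology region, found in many genes that peak in mitosis. Both strands were searched, and the matches do not overlap.
Tubb4b promoter: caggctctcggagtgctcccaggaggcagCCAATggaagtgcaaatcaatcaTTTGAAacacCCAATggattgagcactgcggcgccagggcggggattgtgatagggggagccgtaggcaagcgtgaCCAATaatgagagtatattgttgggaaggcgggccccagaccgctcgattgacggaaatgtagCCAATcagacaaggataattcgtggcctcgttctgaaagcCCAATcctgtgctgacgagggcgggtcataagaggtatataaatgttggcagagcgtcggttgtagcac
The window holds 5 CCAAT matches, which begin at positions -221, -188, -122, -59 and -19 relative to the start, and 1 TTTGAA match, at -198. Of 32851 promoters of the same length, 37.4% hold CCAAT, 17.9% hold TTTGAA, 6.95% hold both, and 0.271% hold 5 or more CCAAT. The limit of 5 is the number in Tubb4b itself, a member picked by its values. That last share therefore does not measure how unusual the promoter is. A promoter was found for 7 members, of which 5 hold CCAAT (Tubb5 has 2 matches, Tuba1a, Tuba1c and Tubb3 have 1) and 1 holds TTTGAA. A match of letters is a description and does not show binding.

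Tubb6, the class V beta-tubulin, was counted in 27 of 29 control and 35 of 37 RO-3306 cells. It had 306 CPM in control and 287 CPM with RO-3306, a log2 ratio of -0.091. Set A was higher (0.58) and sets B, C and D lower (-0.17, -0.72 and -0.46), and the ratio turned to 0.12 with TMM factors. Cells ran from 3.13 to 1391 CPM (median 289.5) in control and from 0 to 584 CPM (median 264) in RO-3306. The medians were close while the highest control cells exceeded every RO-3306 cell. The coefficient of variation over cells was 0.937 in control and 0.527 in RO-3306, and genes of like level had medians of 0.845 and 0.607.

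Tubb2a, a class II beta-tubulin, had a count in 23 of 29 control and 37 of 37 RO-3306 cells. Its level was 265 CPM in control and 229.6 CPM with RO-3306, a log2 ratio of -0.21 whose sign turned under both other scalings. Per cell it ran from 0 to 934 CPM (median 238) and from 0 to 1311 CPM (median 227). Tubb2b, its near copy, had 31.0 CPM in control (29.6 to 32.3) and 27.8 CPM with RO-3306 (26.7 to 28.9). It was found in 20 of 29 control and 37 of 37 RO-3306 cells. At equal depth Tubb2a was found in 21 of 25 control and 33 of 34 RO-3306 cells, and Tubb2b in 18 and 32. The median gene of at least 5 CPM went from 40% to 55.9% of cells. The median gene of like level went from 84% to 97.1% for Tubb2a and from 32% to 47.1% for Tubb2b. Control cells without Tubb2a at that depth had a median of 3459 genes, against 4658 in those with it. The median of Tubb2b over cells was 23.5 CPM in control and 25.04 CPM with RO-3306.

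The counts of Tubb2b kept nearly a fixed proportion to those of Tubb2a. Among cells with at least 100 Tubb2a counts, Tubb2b was a median 11.9% of Tubb2a in 19 control cells (quartiles 10.7% and 13.3%) and 11.96% in 33 RO-3306 cells (11.1% and 13.7%). No cell had Tubb2b with Tubb2a at 0, although 20 control and 37 RO-3306 cells had Tubb2b. Across cells the Spearman correlation of the pair was 0.95 over 25 control cells and 0.94 over 34 RO-3306 cells. Cells share a culture and a depth set equal, and both genes draw on reads that fit either. Counts of Tubb2b from its own messages and from shared reads cannot be told apart here. For Tuba1c over Tuba1a, in contrast, the proportion spread widely, with a median of 36.8% (quartiles 26.1% and 66.2%) in 28 control cells and 48.1% (39.0% and 65.0%) in 35 RO-3306 cells. That pair had correlations of 0.029 and 0.33.

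**Figure D4:**
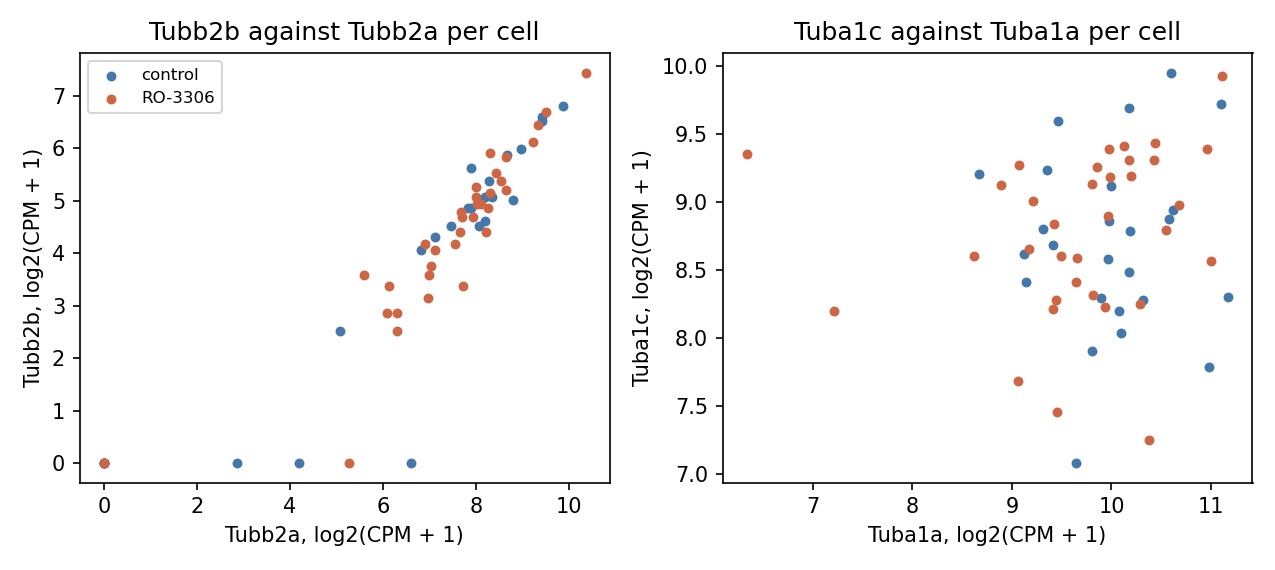
Per-cell levels, log2(CPM + 1) at equal depth, of Tubb2b against Tubb2a (left) and of Tuba1c against Tuba1a (right) in control (blue) and RO-3306 cells (orange). Tubb2b follows Tubb2a along a line (Spearman 0.95 and 0.94) and Tuba1c does not follow Tuba1a in this way (0.029 and 0.33).

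Tubb3 was near background in most cells. It summed to 0.164 CPM in control (10.8 counts in 10 of 29 cells, at most 6 in a cell) and 3.43 CPM with RO-3306 (318 counts in 8 of 37 cells). Of the RO-3306 counts, 98.5% came from cells B10 (188.5 counts) and A6 (124.8 counts). The other RO-3306 cells were at or near the level of control. Summed markers of neurons were low in both groups, as given above, but reached 41.0 CPM in an RO-3306 cell, against at most 1.87 CPM in control. Whether cells B10 and A6 held these markers was not examined. The log2 ratio of Tubb3, 1.93, was 1.18 without the top cell of each group. At this level it depends on the pseudocount, with 0.71 for 5 CPM and 3.74 for 0.1 CPM, so its size is not read.

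Tubg1, the gamma-tubulin of the ring complex, had 151 CPM in control (148 to 154) and 213 CPM with RO-3306 (210.1 to 216), a log2 ratio of 0.50. Sets A to D stood at 162, 195, 64.7 and 50.6 CPM in control and at 176, 127, 266 and 258 CPM with RO-3306. The ratio was 2.02 and 2.33 in sets C and D, 0.12 in set A and -0.62 in set B, so the sets went in both directions. Without set B it was 0.98 and without set C 0.20. Of the control counts of Tubg1, 37.1% came from cells A3 and B4. At equal depth Tubg1 was found in 18 of 25 control and 32 of 34 RO-3306 cells, a difference of 22.1 percentage points. Among all genes of at least 5 CPM, 27.5% were found in at least 20 points more RO-3306 cells, and the median gene went from 40% to 55.9% of cells. For genes at a level like that of Tubg1 the median went from 80% to 94.1%. The 7 control cells without Tubg1 had a median of 3691 genes, against 4975.5 in the 18 with it. The part of the number of genes per cell in the Tubg1 difference was not tested. Tubg2, its close paralog, stood at 2.55 and 1.82 CPM.

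Within cells, alpha and beta messages per kilobase stood in a ratio with a median of 0.687 in control (25 cells, quartiles 0.492 and 0.945) and 0.574 in RO-3306 (34 cells, 0.452 and 0.740). The ranges overlapped, from 0.219 to 1.33 and from 0.320 to 3.71. The alpha side holds Tuba1a and Tuba1c only. With Tuba4a added the medians were 0.746 in control and 0.806 with RO-3306, which turns the order, and with the longest transcripts they were 0.922 and 0.782. No direction is read from this ratio.

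Members differed in how they varied from cell to cell. Over the 28 pairs of the 8 tested members, the median Spearman correlation across cells was 0.032 in control (from -0.30 to 0.95) and 0.34 in RO-3306 (from -0.13 to 0.94). Positive values were seen in 19 and 24 of the 28 pairs. Cells of a group share culture and handling, and each correlation is a description over 25 or 34 cells. Pairs of other genes were not set beside these. Control cells had fewer genes at equal depth (median 4578 against 5976.5), and a larger share of them lacked Tubg1, Tubb2a and Tubb2b. The part of this in the difference between the groups was not tested. Tuba1c had a coefficient of variation of 0.464 in control and 0.380 in RO-3306, below the 0.670 and 0.492 of the median gene of like level. Tubb5 varied more than like genes, at 0.507 and 0.517 against 0.413 and 0.340.

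The spindle is built in dividing cells, so members were set against the summed level of 12 mitotic genes (Cdk1, Ccnb1, Ccnb2, Ccna2, Aurka, Plk1, Cdc20, Cenpf, Top2a, Ube2c, Birc5 and Hmmr). Tuba1c followed that sum most closely in both groups, with Spearman correlations of 0.69 in control and 0.64 in RO-3306. The part of reads shared with Tuba1b in the Tuba1c values was not tested. Tuba1a had 0.0092 and 0.064. Tubb6 had 0.44 and 0.48, Tubb4b 0.46 and 0.32, Tubb5 0.52 and 0.21, and Tubg1 0.35 and -0.40. The summed members had 0.70 and 0.34. Correlations with the number of genes in a cell were smaller for Tuba1c (0.24 and 0.026), while for Tubg1 in control that value was 0.55. The mitotic genes themselves summed to 3149 CPM in control and 3819 CPM with RO-3306, and their 12 ratios had a median of -0.057, with 6 above 0, 6 below and 0 called.

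**Figure D5:**
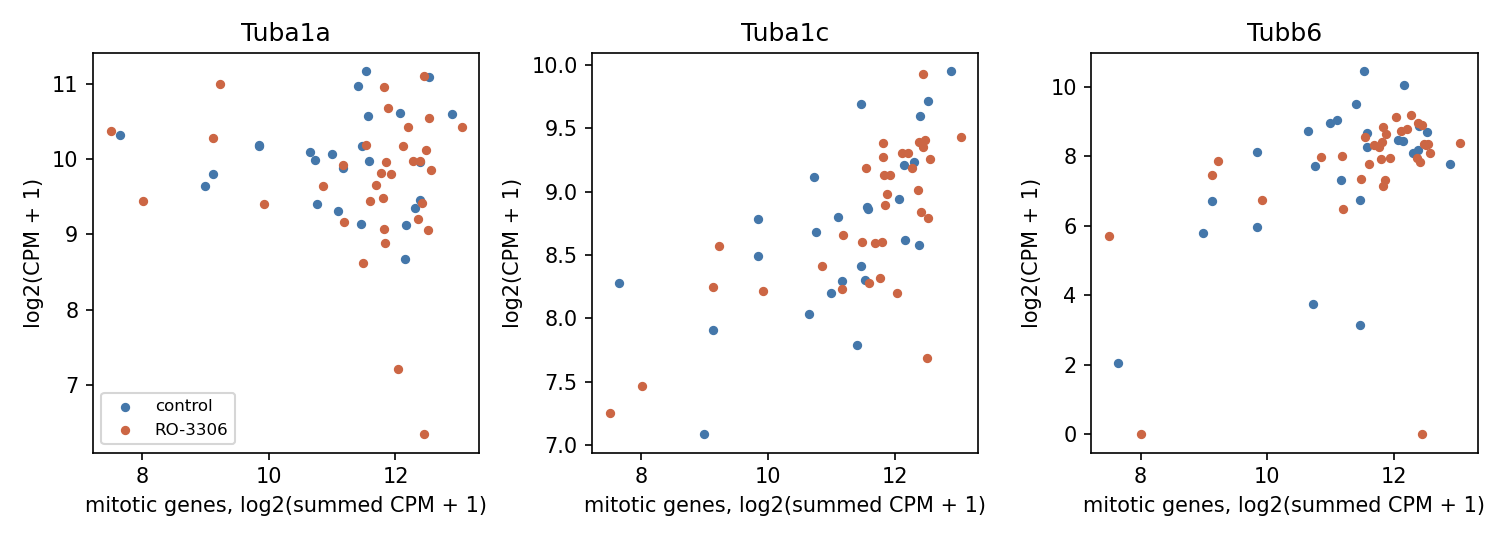
Per-cell log2(CPM + 1) at equal depth of Tuba1a, Tuba1c and Tubb6 against the summed mitotic genes, control (blue) and RO-3306 cells (orange). Tuba1c is higher in cells with more mitotic transcripts (Spearman 0.69 and 0.64) and Tuba1a is not (0.0092 and 0.064).

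Among 2882 genes of at least 50 CPM found in most cells of both groups, those most like the summed tubulins were Jmjd6 (Spearman 0.53 in 25 control and 0.51 in 34 RO-3306 cells), Faf2 (0.48 and 0.54), Cdk1 (0.44 and 0.56), Plk1 (0.44 and 0.45) and Gm14326 (0.42 and 0.51). The median over the candidates was 0.030 and 0.054. These are the highest of many values and describe these cells only.

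Of the 10 other tubulin genes, 3 reached 5 CPM and 0 were called. Tuba4a, an alpha isotype, was at 102 CPM in control, with a count in 17 of 29 cells, and at 261 CPM with RO-3306, with a count in 35 of 37. Its log2 ratio of 1.34 was not called because set B went the other way (-0.23). Adding these 10 genes to the 10 members moved the summed ratio from -0.10 to -0.043. Tuba3b, Tuba8, Tubal3 and Tubb1 were at 0 in both groups.

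The gamma-tubulin ring complex and its anchors had 9 of 11 genes of at least 5 CPM, with 1 called higher, 1 called lower and a median log2 ratio of -0.47, beside 7.23% and 6.43% called and a median of -0.22 over all genes. The list is too small for its count to be read against that share. Mzt1, a small subunit that helps recruit the ring, was higher, at 40.7 CPM in control and 118 CPM with RO-3306 (log2 ratio 1.51), with counts in 8 of 29 and 30 of 37 cells. Cdk5rap2, which tethers the ring to centrosomes, was lower, at 48.2 and 17.1 CPM (-1.44). Tubulin folding, which needs prefoldin and the cofactors Tbca to Tbce, had 11 of 12 genes at 5 CPM or more, 0 called and a median of 0.11. The prefoldin subunits Pfdn1 (109.6 against 127 CPM) and Pfdn5 (392 against 509.8 CPM) had a ratio above 0 in all 4 sets. Of 17 genes of tubulin modification and autoregulation, 11 reached 5 CPM and 0 were called, with a median of -0.22. Among them Ttc5, chosen for its role after its values were seen, had 22.6 CPM in control and 25.2 CPM with RO-3306, with sets of both signs.

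Microtubule-associated proteins stabilise or organise the polymer. Of 25 genes 20 reached 5 CPM, with 1 called higher and 3 called lower, or 4 of 20 against 13.7% of all genes. The median log2 ratio was -1.05, against -0.22 over all genes, and the difference was not tested. The part of transcript length in this and the other list medians was not tested either. Those lower were Map4, a lattice-binding stabiliser (69.6 CPM in control, 13.8 in RO-3306, log2 ratio -2.26), Map7d1 (47.1 and 10.0 CPM, -2.13) and Mapre2 (128 and 35.0 CPM, -1.84). Mapre2 is named because it completes the count and was chosen after its values were seen. Map1lc3b, better known as an autophagy protein, was higher, at 229.5 CPM in control and 515 CPM with RO-3306 (1.16).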

How the data were processed

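Single C10 cells were sequenced with single reads of 150 nt. The deposited values are expected counts per gene, made by the authors with featureCounts 2.0.3 on GRCm39 with RefSeq annotation, over gene spans and with fractions for multiply placed reads, per the file headers. STAR and FastQC are named, without versions, in the submitters' processing notes. Without molecular identifiers, PCR copies are counted too.

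Counts were summed over kept cells of a group and scaled to CPM. Intervals are exact Poisson for sums and exact Clopper-Pearson for shares, on counts rounded to whole numbers. Cells were thinned to 639000 reads, percentile 10 of kept totals, for per-cell values. Doublets were not called, as each library came from 1 sorted cell, and no 2 kept libraries were identical (0 pairs). Lengths and coding sequences came by symbol from GENCODE M21 (GRCm38), with lengths for 94.3% of the 9374 genes and all 10 members. Lists were other tubulins, gamma tubulin ring complex, folding, modification and autoregulation, associated proteins, sequestering and severing, dynein and kinesins, mitotic, housekeeping and cell type markers. Named list genes were at most the 2 highest and 2 lowest ratios of at least 20 CPM with 1 sign in all 4 sets. Most-like genes were the 5 with the highest value of the lower within-group correlation. Members and lists were chosen with earlier results of these data known. Only the ratio and its sign in the 4 sets were tried on simulated data. Those were Poisson counts in which cells of a group differed in depth alone, unlike the cells here. Tools were Python 3.11.15, numpy 2.4.6, pandas 2.3.3, scipy 1.17.1 and matplotlib 3.10.9. In R 4.3.3, alternatives used TMM factors of edgeR 4.0.16 or size factors of DESeq2 1.42.0.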

Additional observations from a re-analysis of the deposited data

Results flagged for a closer look

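Libraries under the minimum of 50000 counts or 1000 genes were left out of the comparisons, except of the alternative that takes all libraries, yet tubulin transcripts were seen in some of them. In the 11 left-out RO-3306 libraries the 10 members summed to 529.6 CPM (interval 489 to 573), against 102 CPM (71.5 to 143) in the 19 left-out control libraries. Tuba1a stood at 116 CPM there (96.6 to 136.5), against 18.1 CPM in control, and Tubb5 at 100.6 CPM, against 8.79 CPM. Tubb4b stood at 154 CPM against 2.93 CPM, and 85.5% of its 179.5 counts came from library D10, which had 743 genes and held 52.0% of all counts of the members. Tubb3 stood at 115 CPM against 0 in control, where 3 counts would be 8.79 CPM, and all of its 133.5 counts came from library D3, which had 454 genes. Library D5 held 773537 of the left-out RO-3306 counts, with 87.3% of them mitochondrial and 12 counts of the members. Without it the members summed to 1552 CPM, Tuba1a to 346, Tubb5 to 272, Tubb4b to 459 and Tubb3 to 343 CPM, a setting chosen after values were seen. In kept RO-3306 cells the members summed to 3807 CPM. Left-out control libraries had 341166 counts in all and left-out RO-3306 libraries 1162603, so the control values rest on 34.9 counts of the members.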

How the results depend on the processing

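The number of members called was 0 under all 18 alternatives tried. The summed log2 ratio of the members, in which Tuba1b counts as 0, was -0.10. It lay near 0 under every alternative and changed sign under 4. It was 0.11 with TMM factors, 0.13 with DESeq2 size factors, -0.080 without mitochondrially encoded genes, -0.11 with all libraries, -0.057 as a mean over cells of per-cell CPM, -0.12 without the cell with the most counts, -0.043 with other tubulin genes added and 0.037 with a length correction. Leaving out each lettered set gave -0.22 to 0.12. Pseudocounts of 0.1 and 5 CPM, the stricter cell filter, the limit on mitochondrial share, thinning and rounding down moved it by less than its counting interval. Tuba1a and Tubb5 stayed below 0 and Tubb4b and Tubg1 above 0 in each of 17 alternatives. Signs turned for Tubb6 and Tubb2b in 5, Tubb2a in 4 and Tuba1c in 2. The cause was not tested. The Tubb4b share difference ran from 7.88 to 11.3 points over the alternatives added after its values were seen. No paired analysis was possible because the results come from no test. Ratios were set side by side by title letter, whose meaning is not given, so a call rests on that matching. Depth limits Tubb3 and the left-out libraries, where few counts stand behind a value.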

Other observations

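Proteins that hold, cut or travel along microtubules were described from lists that the report does not use. Of 10 genes for sequestering and severing, 6 reached 5 CPM and 0 were called, with a median log2 ratio of -0.54, where 13.7% of all genes were called. Stmn1, which binds free tubulin dimers and promotes disassembly, was at 418 CPM in control and 752 CPM with RO-3306, a log2 ratio of 0.85, with a value above 0 in all 4 sets (0.97, 0.87, 0.77 and 0.41). Of 12 genes for dynein and transport kinesins, 12 reached 5 CPM, with 0 called higher, 1 called lower and a median of -0.67, beside 7.23% and 6.43% called and a median of -0.22 over all genes. Klc1, a light chain that links kinesin to cargo, was lower, at 48.4 CPM in control and 11.6 CPM with RO-3306 (log2 ratio -1.97), with counts in 14 of 29 and 11 of 37 cells. Dynlrb1, a light chain of dynein, was at 502 and 713 CPM (0.51). Of 8 housekeeping genes 7 reached 5 CPM and 0 were called, with a median of 0.21. Actb, the main cytoplasmic actin, was at 2636 and 1626 CPM (-0.70), below 0 in all 4 sets, while Gapdh was at 1076 and 1512 CPM (0.49).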
